A study of Mus musculus with 39 samples.

Results

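The 42 genes described here encode the machinery of mitosis: the kinases and cyclins that start it, the chromosomal passenger complex, the spindle checkpoint, the kinetochore, the spindle motors, the proteins of cytokinesis, the ubiquitin enzymes of mitotic exit and 3 proteins of chromosome structure. They were given as a list of symbols, and all 42 matched 1 row each among the 43430 rows of the count table. The study sequenced polyadenylated RNA, from 3 ng of total RNA a library, of sorted lung cells of C57BL/6J mice in 8 groups and 39 libraries. Lung monocytes came from naive young or old mice given saline or ISRIB, a small molecule that activates the initiation factor eIF2B and so blunts the integrated stress response. Siglec F-low alveolar macrophages, the monocyte-derived cells of the injured lung, came from young or old mice that had received bleomycin, an agent that causes lung injury and scarring, and were sorted 21 days later. In these mice ISRIB or vehicle was given into the peritoneum daily from day 7. For the naive mice the timing is not given in the sources used here. The sample labels put the young mice at 8 to 12 weeks and the old mice at over 18 months, while the series text puts them at 3 to 5 and 18 to 24 months. Every group held 5 libraries except the macrophages of young ISRIB mice, which held 4. Cell type and bleomycin changed together, so in the comparison of macrophages with monocytes they cannot be told apart.

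A cell that divides builds these proteins late in its cycle. CDK1 with cyclins A2, B1 and B2 drives entry into mitosis, the kinetochore ties each chromosome to the spindle, the checkpoint holds anaphase back until every kinetochore is attached, and CDC20 with the anaphase-promoting complex then has cyclin B and other proteins degraded. Most of the genes are transcribed in a pulse in G2 and M phase and are silent in resting cells, which is why Mki67 and Top2a transcripts serve as markers of cycling cells. Blood monocytes are held to be largely non-dividing once they leave the marrow, whereas alveolar macrophages can renew themselves by division in the lung. In bulk RNA, fewer cycling cells and less RNA per cycling cell cannot be told apart.

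The 39 libraries held 4595331 to 16056708 counts each (median 8628240). The monocyte library of young saline mice with replicate number 4 stood apart: it was the shallowest, with 12324 genes and 17 of the 42 genes detected. All 42 genes passed the low-count filter in the macrophage libraries. In the monocyte libraries 27 passed, down to Cdc20 at 164 and Ndc80 at 166 counts over 20 libraries, and 15 did not, from Ccna2 and Tpx2 at 113 counts downward. Siglecf was low in the monocytes (0 to 1.57 in any library, in CPM, which are counts scaled to equal library totals) and present in the macrophages (46.8 to 156 CPM), while Ly6c2, a classical monocyte gene, stood at 278 to 698 CPM in the monocytes and at 0.193 to 7.01 CPM in the macrophages. No labels say that libraries of a group come from separate mice, so the p-values measure the spread between these libraries.

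Promoters of cell cycle genes of this kind are known for a CHR element, TTTGAA or TTTAAA, and for CCAAT boxes, which are bound by the DREAM and B-MYB complexes and by NF-Y. Windows of 300 bases, from 250 before to 50 after the start site, were at hand for 34 of the 42 genes (RefSeq, GRCm38.p6). On either strand, TTTGAA lay in 27 of the 34 windows (79.4%), against 17.9% of 32851 promoters of the same length. TTTGAA or TTTAAA lay in 30 (88.2% against 27.6%), CCAAT in 26 (76.5% against 37.4%), and at least 2 CCAAT matches in 19 (55.9% against 11.7%). A CCAAT match together with either CHR form was held by 25 (73.5% against 10.7%), with TTTGAA and TTTAAA counted once where both occurred. The stretches from 90 bases before to 30 after the start site are shown for 3 genes that were much higher in macrophages (Cdk1, Ccnb2 and Top2a) and for the pair that was not (Racgap1 and Kif23). Capitals mark matches to the CHR forms and the CCAAT box on either strand, so that a match on the other strand reads as its reverse complement. All 5 lie on the minus strand and are written 5′ to 3′ along the gene, at chr10:69352883-69353002, chr9:70421525-70421644, chr11:99024160-99024279, chr15:99651627-99651746 and chr9:61946770-61946889 in that order.
Cdk1: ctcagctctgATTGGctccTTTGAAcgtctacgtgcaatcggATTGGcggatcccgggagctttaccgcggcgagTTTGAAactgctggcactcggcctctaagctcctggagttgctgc
Ccnb2: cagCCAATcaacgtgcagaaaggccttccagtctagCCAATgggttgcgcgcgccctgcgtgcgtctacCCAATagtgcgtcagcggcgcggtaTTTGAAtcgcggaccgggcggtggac
Top2a: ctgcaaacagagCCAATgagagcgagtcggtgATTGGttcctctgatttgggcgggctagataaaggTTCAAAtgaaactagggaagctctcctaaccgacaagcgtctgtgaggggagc
Racgap1: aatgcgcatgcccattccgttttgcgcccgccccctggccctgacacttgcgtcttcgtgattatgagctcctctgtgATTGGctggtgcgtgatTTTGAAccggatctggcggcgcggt
Kif23: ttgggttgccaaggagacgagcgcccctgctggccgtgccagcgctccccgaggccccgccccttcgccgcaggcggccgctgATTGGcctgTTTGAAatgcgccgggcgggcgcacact
Racgap1 and Kif23 thus held a TTTGAA match and a CCAAT match as the other 3 did, each once in its 300-base window.

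Macrophages of the bleomycin-injured lung held more mitotic RNA than naive monocytes at both ages and with either treatment. The CPM of the 42 genes summed to 187 to 315 in the 20 monocyte libraries (median 261) and to 344 to 1421 in the 19 macrophage libraries (median 681), with no overlap. The make-up of the sum differed too. Racgap1, Mki67, Incenp and Kif23 supplied a median of 71.2% of it in monocytes and 26.5% in macrophages. Without these 4, the other 38 genes summed to 52.4 to 135 CPM in monocytes and to 239 to 1069 CPM in macrophages.

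**Figure D1:**
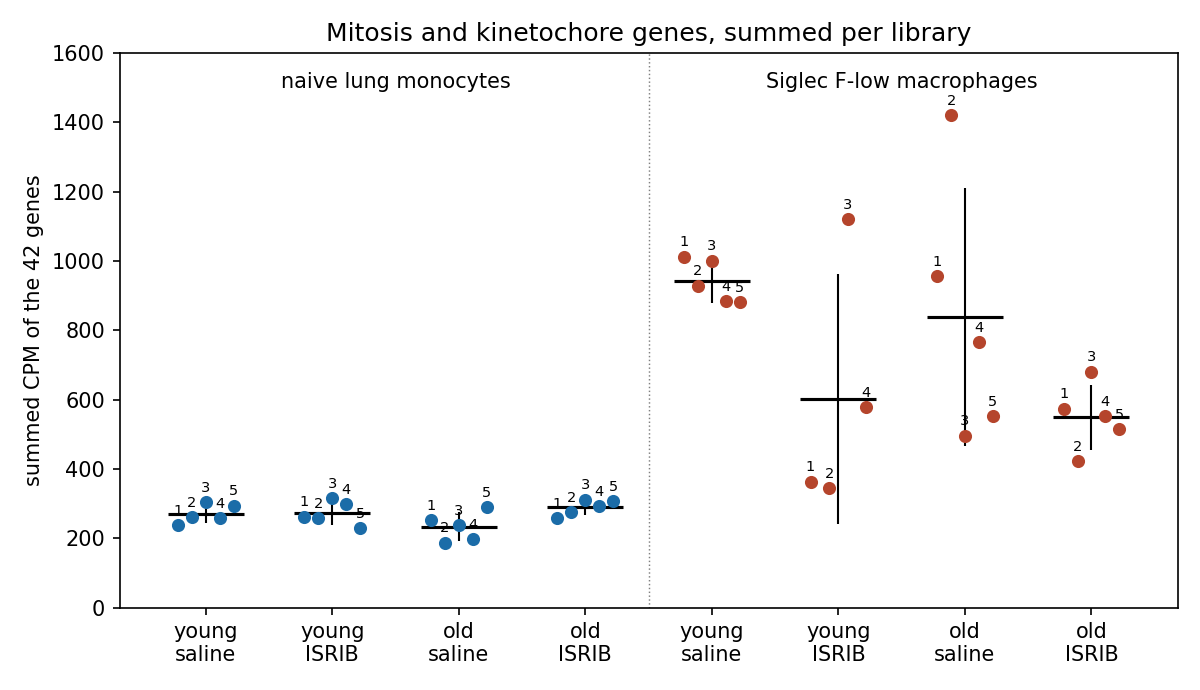
Summed CPM of the 42 genes (vertical axis) in each library of the 8 groups (horizontal axis). Points are libraries with their replicate numbers, horizontal bars are group means and vertical bars are 1 SD. Monocyte libraries lie between 187 and 315 CPM, and among macrophages replicate 3 of young ISRIB (1121 CPM) and replicate 2 of old saline (1421 CPM) stand above their groups.

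Averaged over the 4 pairs of groups, 38 of the 42 genes were higher in macrophages, 1 was lower and 3 did not pass edgeR's quasi-likelihood test at an adjusted p under 0.05. Of all 13587 genes tested, 39.9% were called higher and 39.2% lower (79.2% in either direction), and the median log2 fold change was 3.30 over the 42 genes against -0.003 over all genes (3.30 also with the 4 genes that had a monocyte group at 0 counts set to their pooled ratio). That count includes 15 genes that passed the filter only through the macrophage libraries and therefore had to differ. The tallies by role below include them too. Of the 27 that passed in monocytes alone, 23 were higher, Racgap1 was lower, and Aurkb, Cenpa and Kif23 were not called. Among saline groups, 40 were higher and 1 lower in young mice (31% and 29% of all genes, 60.0% in either direction), and 37 were higher and 1 lower in old mice (29.7% and 27.3%, 57.0% in either direction). Without the shallow monocyte library, 38 were higher and 1 lower both in the average and in young saline mice. Over all libraries, 19 of the 42 were higher in macrophages without overlap (10.6% of all genes) and 0 were lower without overlap (10.6%).

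**Figure D2:**
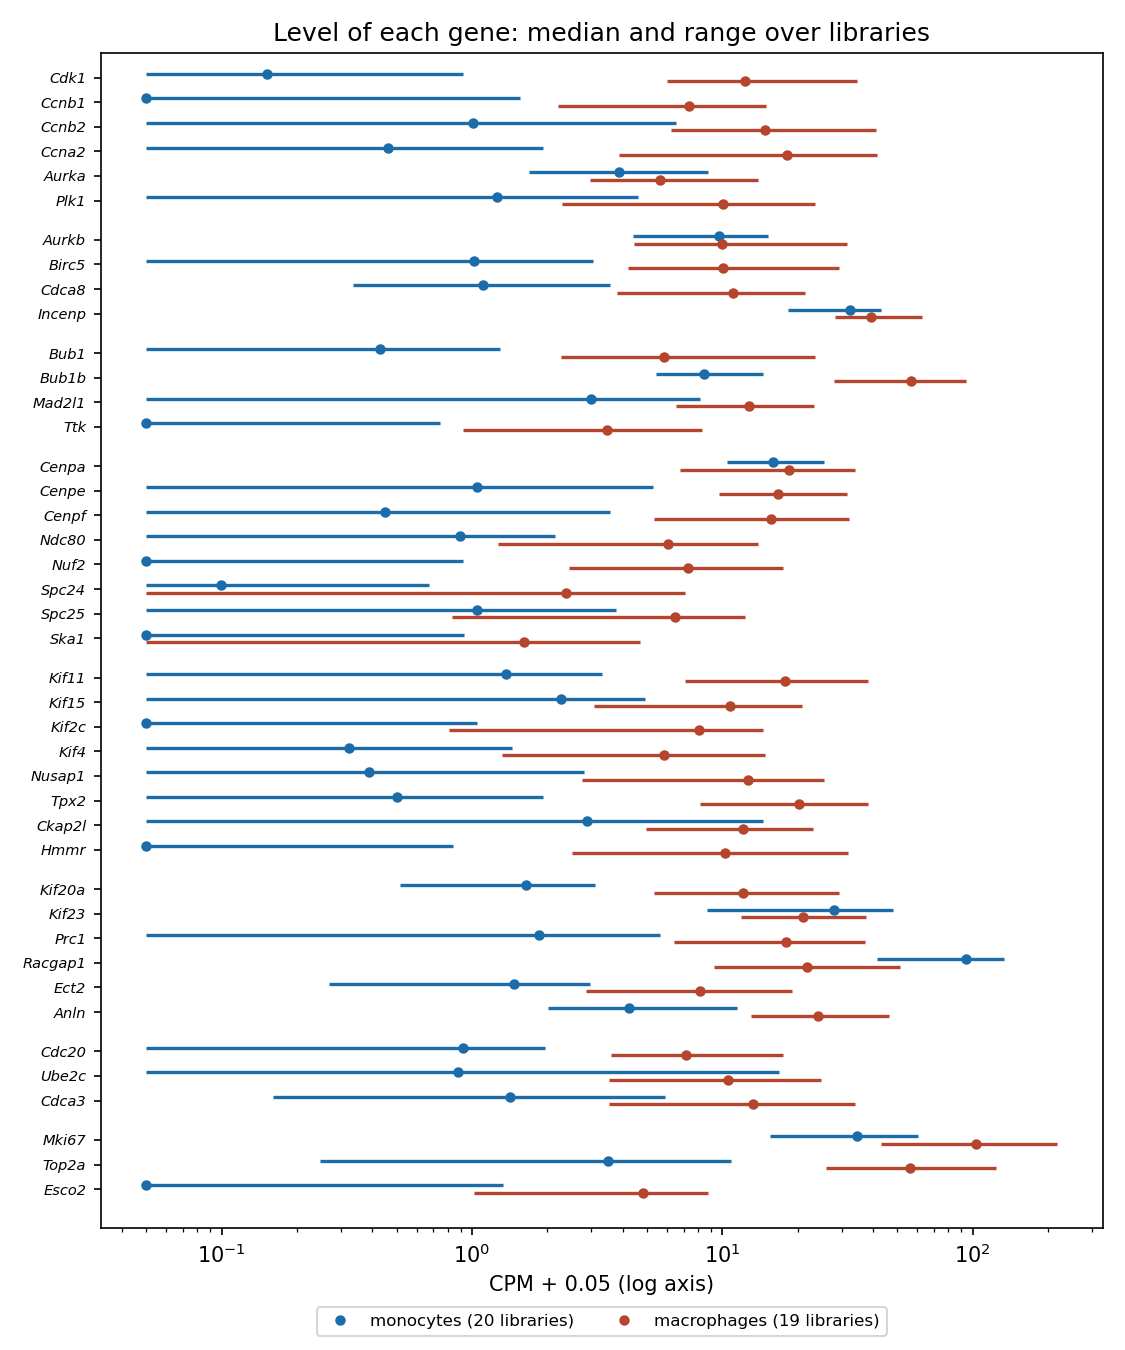
Level of each gene in 20 monocyte libraries and 19 macrophage libraries, as CPM + 0.05 on a log axis, with the median as a point and the range as a line, ordered by role. Most macrophage ranges lie to the right of the monocyte ranges, those of Aurkb, Cenpa, Incenp and Kif23 overlap widely, and that of Racgap1 lies to the left.

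Among the kinases and cyclins, all 6 were higher in macrophages, of which Cdk1, Ccnb1 and Ccna2 passed the filter only there. Cdk1 (ENSMUSG00000019942; GRCm38, chromosome 10, 69335146 to 69352938), the kinase that drives mitotic entry, was nearly absent from saline monocytes. It gave 0 CPM in 4 of 5 young saline libraries and 0.25 CPM in the other, and 0 to 0.117 CPM in old saline libraries. In saline macrophages it gave 22.4, 22.9, 19.8, 11.3 and 16.2 CPM in young mice and 23.8, 34.5, 9.03, 11.6 and 12.2 CPM in old mice. Every macrophage library lay above every monocyte library. The pooled counts in young saline mice were 817 against 2, a depth-adjusted ratio of 366 (95% interval for counting error only, 101 to 3029). The ratio was 413 in old saline, 19.9 in young ISRIB and 26.8 in old ISRIB mice. Over all libraries it was 58.1 (43.1 to 80.2), with monocytes at 0 to 0.873 CPM. Ccnb2, encoding cyclin B2, read 31.5, 23, 30.2, 23.9 and 25.2 CPM in young saline macrophages. In the matching monocytes it read 1.28, 0.222, 0.926, 0 and 6.49 CPM, the last in the library with replicate number 5. Its log2 difference over the 4 pairs was 4.05 ± 0.32 (SE; edgeR adjusted p = 9.89e-15), and reads may be shared with the pseudogene Ccnb2-ps, which took 477 counts. Ccna2, encoding cyclin A2, ranged over 0 to 1.86 CPM in monocytes and 3.81 to 41.6 CPM in macrophages. At the low end of the group stood Aurka, the centrosomal kinase Aurora A, with a log2 difference of 0.68 ± 0.21 (SE; edgeR adjusted p = 0.00359). It was already present in monocytes, at 1.63 to 8.72 CPM.

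The chromosomal passenger complex, which corrects faulty chromosome attachments, was split. Birc5 (survivin) and Cdca8 (borealin), which target the complex to the centromere, rose by 3.72 ± 0.29 and 3.13 ± 0.22 on the log2 scale. Birc5 read 0 to 3 CPM in monocytes and 4.14 to 29.2 CPM in macrophages. Incenp, the scaffold of the complex, was well represented in both cell types, at 18.3 to 43.1 CPM in monocytes and 28.1 to 62.5 CPM in macrophages, and its log2 difference was 0.47 ± 0.09 (SE; edgeR adjusted p = 1.43e-05). The kinase subunit Aurkb read 11.1, 5.43, 12.4, 4.35 and 11.9 CPM in young saline monocytes and 18.3, 14.7, 18, 18.6 and 11.8 CPM in young saline macrophages. These groups overlapped only at the lowest macrophage library. In that pair Aurkb differed by 0.86 ± 0.32 (SE; edgeR adjusted p = 0.0194), a call lost without monocyte replicate 2 or replicate 4 (adjusted p up to 0.0628). Over the 4 pairs it differed by 0.18 ± 0.16 (SE; edgeR adjusted p = 0.294).

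All 4 spindle checkpoint genes were higher in macrophages, of which Bub1 and Ttk passed the filter only there. Bub1b, encoding the checkpoint protein BUBR1, read 81.1, 56.9, 74.7, 62.6 and 65.3 CPM in young saline macrophages against 10.6, 7.32, 7.3, 8.05 and 11.1 CPM in the monocytes, and the lowest macrophage library (27.8 CPM) lay above the highest monocyte library (14.5 CPM). Mad2l1, whose product binds CDC20 at unattached kinetochores, rose by 2.11 ± 0.24 on the log2 scale, with 0 to 8.12 CPM in monocytes and 6.46 to 23.2 CPM in macrophages. Bub1, a kinase of the kinetochore, had 0 counts in 8 of 20 monocyte libraries and read 2.22 to 23.4 CPM in macrophages. Ttk, the kinase MPS1 that starts checkpoint signalling, had 0 counts in 11 monocyte libraries.

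Of the 8 centromere and kinetochore genes, 7 rose in macrophages, of which Cenpf, Nuf2, Spc24 and Ska1 passed the filter only there. The exception was Cenpa, the histone H3 variant that marks the centromere. Its log2 difference was 0.27 ± 0.14 over the 4 pairs (SE; edgeR adjusted p = 0.0641) and 0.90 ± 0.27 in young saline mice (edgeR adjusted p = 0.00401). The average was called in 9 of 39 fits that left out 1 library, with adjusted p from 0.0173 (without young ISRIB macrophage replicate 1) to 0.238. Cenpa read 14.6, 18.3, 15.9, 12.6 and 15.9 CPM in young saline monocytes, 27, 27, 32.3, 29.2 and 25.5 CPM in young saline macrophages, and only 6.7 to 21.1 CPM in macrophages of old ISRIB mice. Thus the young saline groups did not overlap, while the old ISRIB macrophages reached below all monocytes (10.4 CPM or more). The outer kinetochore genes behaved otherwise. Cenpe, a kinesin that carries chromosomes to the spindle equator, and Cenpf rose by 3.91 ± 0.29 and 4.85 ± 0.34 on the log2 scale. Nuf2, a subunit of the NDC80 complex that grips microtubules, had 0 counts in 14 of 20 monocyte libraries and read 2.4 to 17.4 CPM in macrophages. Its partner Ndc80 differed less, by 2.68 ± 0.28, and ranged over 0 to 2.09 CPM in monocytes and 1.22 to 13.8 CPM in macrophages.

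The 8 spindle motors and microtubule-binding proteins all rose, of which Kif2c, Kif4, Nusap1, Tpx2 and Hmmr passed the filter only in macrophages. Hmmr, a spindle-associated protein, rose by 6.30 ± 0.37 on the log2 scale and had 0 counts in 12 monocyte libraries. Kif2c, a kinesin that depolymerises microtubules, had 0 counts in 16 monocyte libraries, all 5 of young ISRIB mice included, and its pooled counts were 1196 in macrophages and 25 in monocytes, a depth-adjusted ratio of 50.3 (95% interval for counting error only, 33.9 to 78.1). Tpx2, which activates Aurora A on the spindle, read 0 to 1.87 CPM in monocytes and 8.07 to 38.2 CPM in macrophages. For Kif11, the kinesin that pushes spindle poles apart, the ranges were 0 to 3.27 and 7.06 to 38 CPM. Both pairs of ranges were fully separate. Ckap2l had the smallest difference of the 8, at 1.89 ± 0.27, and its monocyte range of 0 to 14.4 CPM reached into the macrophage range of 4.91 to 23 CPM.

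Cytokinesis genes held the exceptions. Racgap1 (ENSMUSG00000023015; GRCm38, chromosome 15, 99620496 to 99651656) and Kif23 encode the subunits of centralspindlin, the complex that bundles microtubules at the cell equator and recruits ECT2 to start the contractile ring. In saline monocytes Racgap1 read 67.6, 91.2, 133, 117 and 51.8 CPM in young mice and 65.7, 41.5, 80.3, 44.8 and 119 CPM in old mice. In saline macrophages it read 36.7, 27.5, 33.2, 28.9 and 26.5 CPM in young mice and 24.9, 35.7, 19.8, 21.7 and 19.1 CPM in old mice. Each saline monocyte library thus lay above each saline macrophage library, and over all groups replicate 3 of the young ISRIB macrophages (51.0 CPM) alone reached into the monocyte range. Racgap1 was 3.56-fold lower in macrophages over the 4 pairs (log2 -1.83 ± 0.15, SE; edgeR adjusted p = 5.43e-14), and between -1.99 and -1.76 when each of the 39 libraries was left out in turn. Kif23 read 15.2, 39, 37.5, 48.1 and 21.9 CPM in young saline monocytes and 25.2, 37.5, 30.2, 23.4 and 24.4 CPM in young saline macrophages, and over the 4 pairs it differed by -0.25 ± 0.14 (SE; edgeR adjusted p = 0.105). It was called lower in 3 of 39 fits that left out 1 library, which were young ISRIB macrophage replicate 3, old saline macrophage replicate 2 and old saline monocyte replicate 2. Over the 39 fits its log2 difference was -0.32 to -0.19, with edgeR adjusted p from 0.0350 to 0.204. The other cytokinesis genes rose. Prc1, which crosslinks the midzone microtubules, Kif20a, Ect2, the RhoA activator that centralspindlin recruits, and Anln, the ring scaffold anillin, rose by 3.32 ± 0.24, 3.15 ± 0.21, 2.61 ± 0.23 and 2.53 ± 0.16 on the log2 scale.

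Racgap1 and Kif23 also varied among the monocyte libraries themselves, and were set against the summed CPM of 10 markers of nonclassical monocytes, the subset that patrols the vessel wall. The relation was chosen after the values were seen. Over the 20 monocyte libraries, Racgap1 was higher where the marker sum was higher, with Pearson's r = 0.64 (permutation p = 0.0025, 100000 resamples) and Spearman's rho = 0.59 (permutation p = 0.0073). Without the 2 libraries farthest from the median of the marker sum, young saline replicate 5 and old saline replicate 2, r was 0.48. For Kif23, r was 0.42 (permutation p = 0.065), rho was 0.48 (permutation p = 0.032), and r without those 2 libraries was 0.23. In the family of 4 relations computed, of which 2 are not reported here, the Benjamini-Hochberg adjusted p for r were 0.0033 for Racgap1 and 0.065 for Kif23, and for rho 0.0097 and 0.032. With both measures centred on their group means and permuted inside the 4 groups, an alternative chosen after the data were seen, r was 0.61 for Racgap1 (permutation p = 0.01, adjusted over the 4 relations 0.014) and 0.33 for Kif23 (permutation p = 0.22). No batch is named in the labels.

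**Figure D3:**
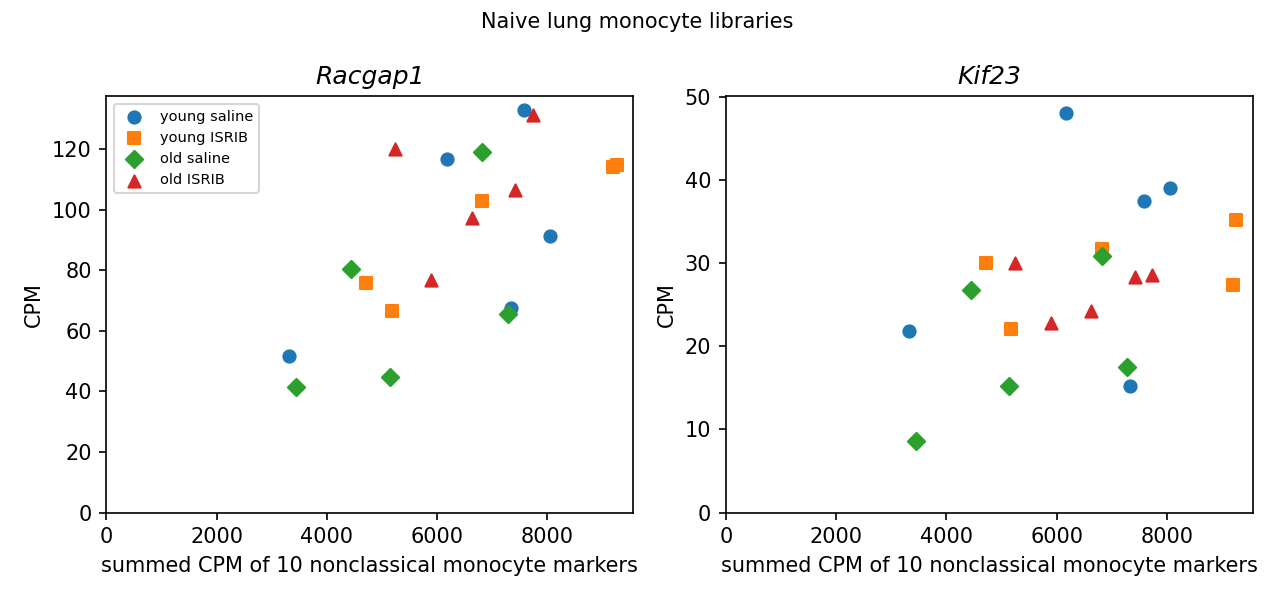
CPM of Racgap1 (left) and Kif23 (right) in 20 naive monocyte libraries against the summed CPM of 10 nonclassical monocyte markers in the same library, by group. The 6 libraries with the lowest marker sums lie between 41.5 and 80.3 CPM of Racgap1, below the overall median of 94.3 CPM, and the others between 65.7 and 133 CPM.

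The mitotic exit genes rose together. Cdc20, the activator of the anaphase-promoting complex, gave 11.7, 7.11, 17.4, 9.87 and 9.59 CPM in young saline macrophages against 0.392, 0.333, 1.04, 0 and 0.5 CPM in the monocytes. All its macrophage libraries lay above its monocyte libraries. Cdca3 rose by 3.26 ± 0.26 on the log2 scale. Ube2c, the ubiquitin-conjugating enzyme of that complex, rose by 2.77 ± 0.35, but was uneven in young saline monocytes, where it read 5.98, 0.887, 0.811, 0 and 16.7 CPM. Its call in that pair (1.42 ± 0.63; edgeR adjusted p = 0.0492) was lost in 9 of 10 fits that left out 1 library and under DESeq2 (adjusted p = 0.0734). Ube2c shares 22.8% and Kif20a 29.3% of exon bases with a gene on the opposite strand. The partner of Ube2c, Tnnc2, had only 4 counts over all libraries, while that of Kif20a, Cdc23, had 7559. Kif4 (15.1%, Pdzd11), Ccna2 (12.5%, Exosc9) and Cdc20 (2.84%, Elovl1) share bases with genes at 4055, 5580 and 39216 counts. Whether reads were counted by strand is not given in the sources used here.

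The last group holds the common markers of cycling cells. Mki67 (GRCm38, chromosome 7, 135689784 to 135716361), which encodes the Ki-67 coat of mitotic chromosomes, was not absent from monocytes. It read 35.8, 36, 29.2, 15.5 and 46.6 CPM in young saline monocytes and 142, 131, 131, 139 and 129 CPM in young saline macrophages. The log2 difference was 1.62 ± 0.14 over the 4 pairs (SE; edgeR adjusted p = 3.68e-13), far below that of Top2a at 4.14 ± 0.23 (adjusted p = 1.79e-19). Top2a (GRCm38, chromosome 11, 98992943 to 99024189), which encodes the topoisomerase that untangles sister chromatids, read 1.08, 3.33, 4.75, 6.96 and 4.75 CPM in young saline monocytes and 105, 89.5, 91.7, 81.9 and 74.9 CPM in young saline macrophages. Esco2, which acetylates cohesin to join sister chromatids, had 0 counts in all 10 saline monocyte libraries, so that saline macrophages were at least 80.7-fold higher in young and at least 73.6-fold higher in old mice (taking 3 counts in the pooled monocyte libraries as the limit that 0 counts allow). In young ISRIB mice the pooled counts were 57 against 20, a depth-adjusted ratio of only 3.75 (95% interval for counting error only, 2.22 to 6.60). In old ISRIB mice they were 188 against 1.

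Per kilobase of exon, the order of the genes differed between the cell types. In monocytes the median RPKM was 13.3 for Racgap1, 7.43 for Incenp, 3.52 for Kif23, 3.43 for Mki67 and 3.27 for Aurkb. Neighbouring ranges overlapped, at 5.86 to 18.8, 4.22 to 9.96, 1.09 to 6.09, 1.54 to 6.01 and 1.48 to 5.14 in that order. The order is thus that of the medians only, and the last 3 cannot be ordered. In macrophages Bub1b came first with 13.3, followed by Mki67 with 10.2, Ccnb2 with 9.63, Incenp with 9.02 and Top2a with 6.25 median RPKM, while Racgap1 had 3.06 and Ska1, a kinetochore protein, came last with 0.583. Neighbours in the macrophage order overlapped widely.

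Further cell cycle genes were followed in the same comparison. Of all genes, 39.9% were called higher and 39.2% lower. Genes that passed the filter through only 1 cell type had to differ, and the lists here were not split by this. Of 93 further mitosis genes, 73 were called higher in macrophages and 7 lower, with Melk at 5.73 ± 0.36 (log2, SE). Of 40 replication genes, 36 were higher and 1 lower, with Rrm2, a ribonucleotide reductase subunit, at 3.88 ± 0.21. Among 18 G1 cyclins and drivers, 13 were higher and 4 lower: Ccne1 (cyclin E1) and Ccnd1 (cyclin D1) were higher by 2.68 ± 0.27 and 1.49 ± 0.16, and Ccnd3 (cyclin D3) was lower, at -2.16 ± 0.07. Of 20 genes that restrain the cycle, 5 were higher and 13 lower. Cdkn2b, encoding p15, was called higher on few counts (0 in all old saline monocytes and 53 over the old saline macrophages), while Cdkn2d (p19) and Cdkn1b (p27) were lower, at -2.79 ± 0.10 and -1.65 ± 0.06. Markers of other cells moved as well. The summed CPM of 10 myeloid progenitor markers was 53.2 to 144 in monocytes and 0.611 to 6.43 in macrophages. That of 10 endothelial markers was 3.57 to 23.5 in monocytes and 115 to 260 in macrophages, with 9 of 10 higher on average and 1 of the 6 that could be tested called. Emcn was at 0 in all young macrophages. In macrophages, Ctsg was at 0 in every library. Their part in the difference was not tested.

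Within the macrophages, the fitted log2 fold change of ISRIB against saline was below 0 for all 42 genes at each age, and 1 gene, Top2a, passed the test when both ages were averaged. By mean CPM, Ect2 in old mice was the exception, at 9.54 with ISRIB, where replicate 3 read 18.9, and 9.49 with saline. Top2a read 105, 89.5, 91.7, 81.9 and 74.9 CPM in young saline macrophages and 25.9, 27.7, 85.5 and 44.6 CPM in young ISRIB macrophages. In old mice it read 92.4, 124, 41.2, 70.5 and 43.5 CPM with saline and 52.3, 31.1, 56.4, 39 and 39.3 CPM with ISRIB. Young ISRIB replicate 3 lay within the young saline range and the other 3 libraries lay below it, while in old mice the lower part of the saline range overlapped the ISRIB libraries. Over both ages Top2a was 1.83-fold lower (log2 -0.87 ± 0.20, SE; edgeR adjusted p = 0.0404). Of all 12171 genes, 0.378% were called lower and 0.452% higher in this comparison (0.830% in either direction). The call was lost in 14 of 19 fits that left out 1 library, with adjusted p between 0.00162 and 0.113, and with all 39 libraries in the fit (adjusted p = 0.158). Top2a stayed lower in each of these fits, by 0.74 to 1.10 on the log2 scale.

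The other 41 genes did not pass. Before adjustment (p under 0.05), 33 of the 42 were lower and 0 higher, against 992 lower and 1027 higher of all genes. The median log2 fold change was -0.71 over the 42 and -0.004 over all genes. Ndc80 was nearest to the threshold, at -1.05 ± 0.28 (SE; edgeR adjusted p = 0.0599), followed by Aurkb at -0.92 ± 0.25 (adjusted p = 0.0677), Plk1, the polo-like kinase of mitotic entry, at -0.89 ± 0.25 (adjusted p = 0.0690), and Aurka at -0.88 ± 0.25 (adjusted p = 0.0741). Medians by role lay between -0.87 for the kinases and cyclins and for chromosome structure and -0.52 for the cytokinesis genes. Racgap1, Incenp and Anln, at -0.38, -0.35 and -0.32, had the smallest values of the 42.

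**Figure D4:**
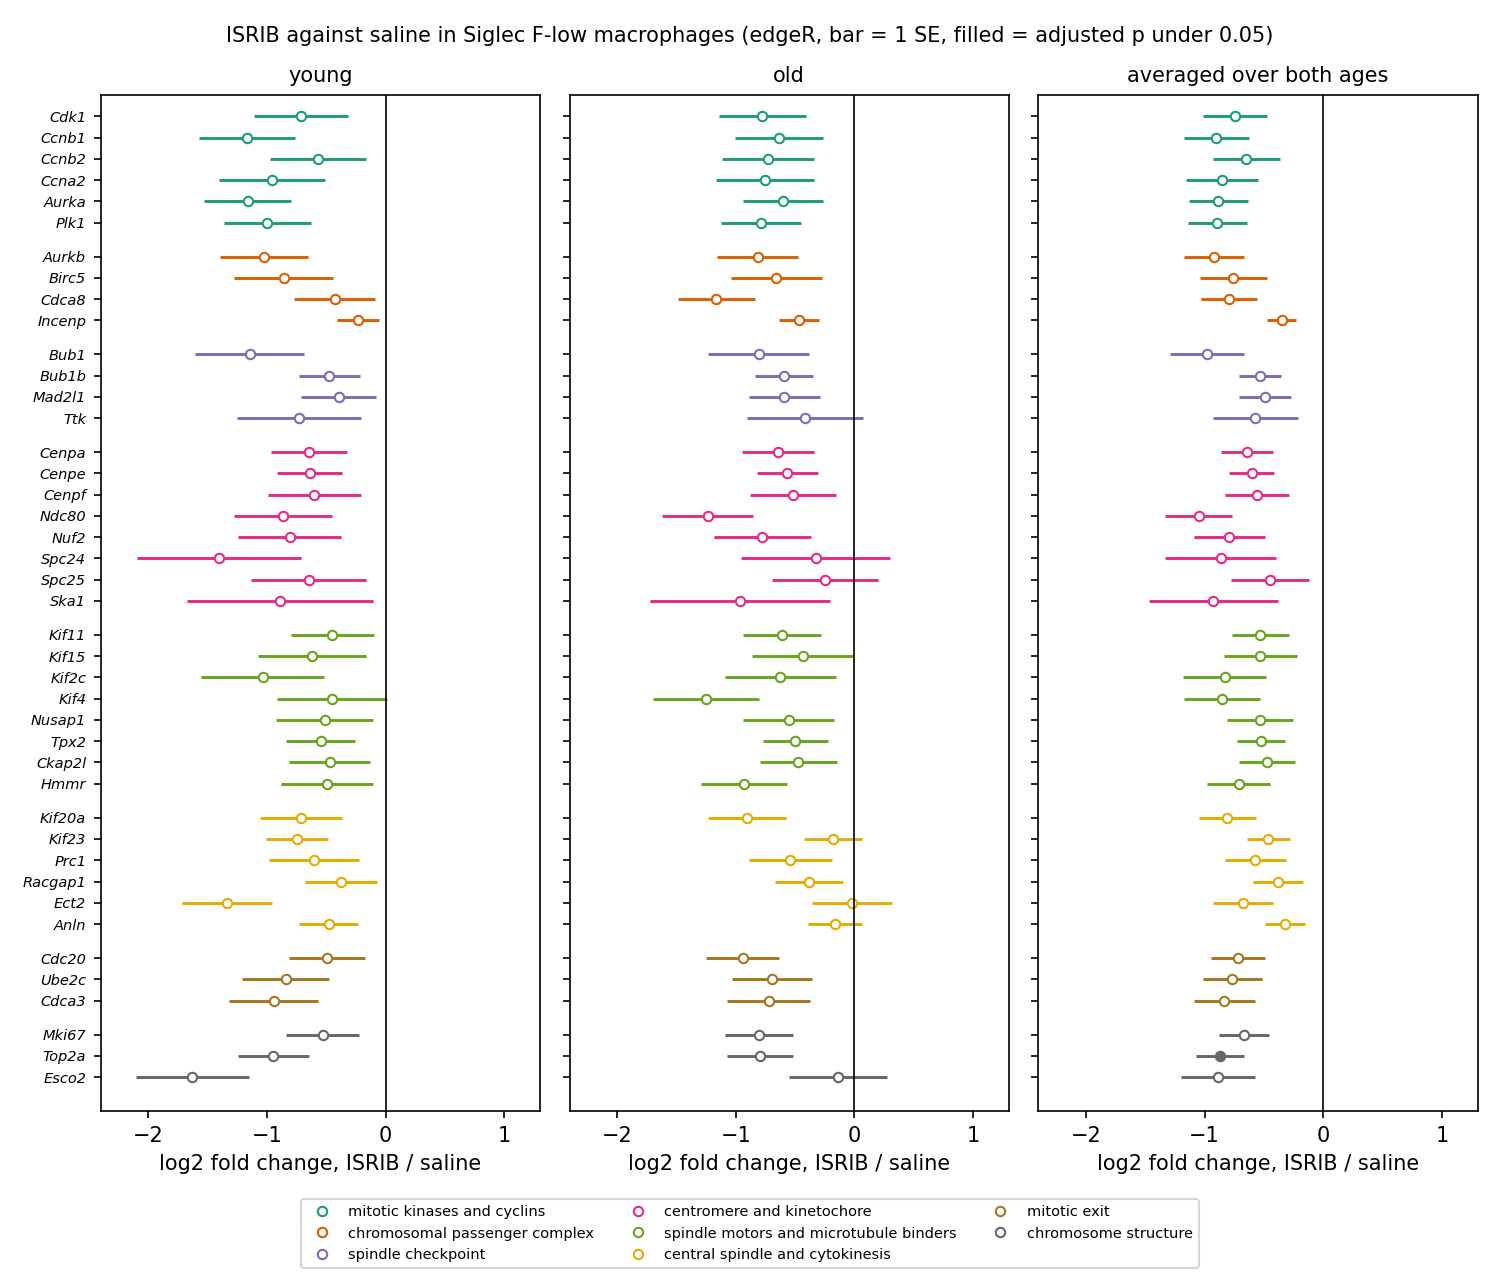
Log2 fold change of ISRIB against saline in macrophages of young mice, of old mice and averaged over both ages (horizontal axes) for each of the 42 genes, coloured by role. Bars are 1 SE and the filled point marks the gene with an adjusted p under 0.05, which is Top2a at -0.87 in the average; all other points lie left of 0 as well.

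The spread within groups was wide. The 42 genes summed to 1013, 929, 1001, 884 and 881 CPM in young saline macrophages and to 364, 344, 1121 and 579 CPM in young ISRIB macrophages. Old macrophages held 956, 1421, 496, 765 and 553 CPM with saline and 573, 423, 681, 553 and 514 CPM with ISRIB. The young saline libraries were close together, whereas the young ISRIB and old saline groups each held a library far above the rest. Young ISRIB replicate 3 was the highest of its group for 40 of the 42 genes, and old saline replicate 2 was the highest of its group for 39 and the highest of all 19 macrophage libraries for 29. Without young ISRIB replicate 3, 30 of the 42 genes were called lower in the average (median log2 -0.97) and 16 in young mice (median -1.28). Leaving out old saline replicate 2 alone gave 0 calls in the average (median -0.55). With both libraries left out, a setting chosen after the data were seen, 23 were called in the average and 26 in young mice. The shares of all genes given in this text are those of the main fit and do not cover these refits.

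**Figure D5:**
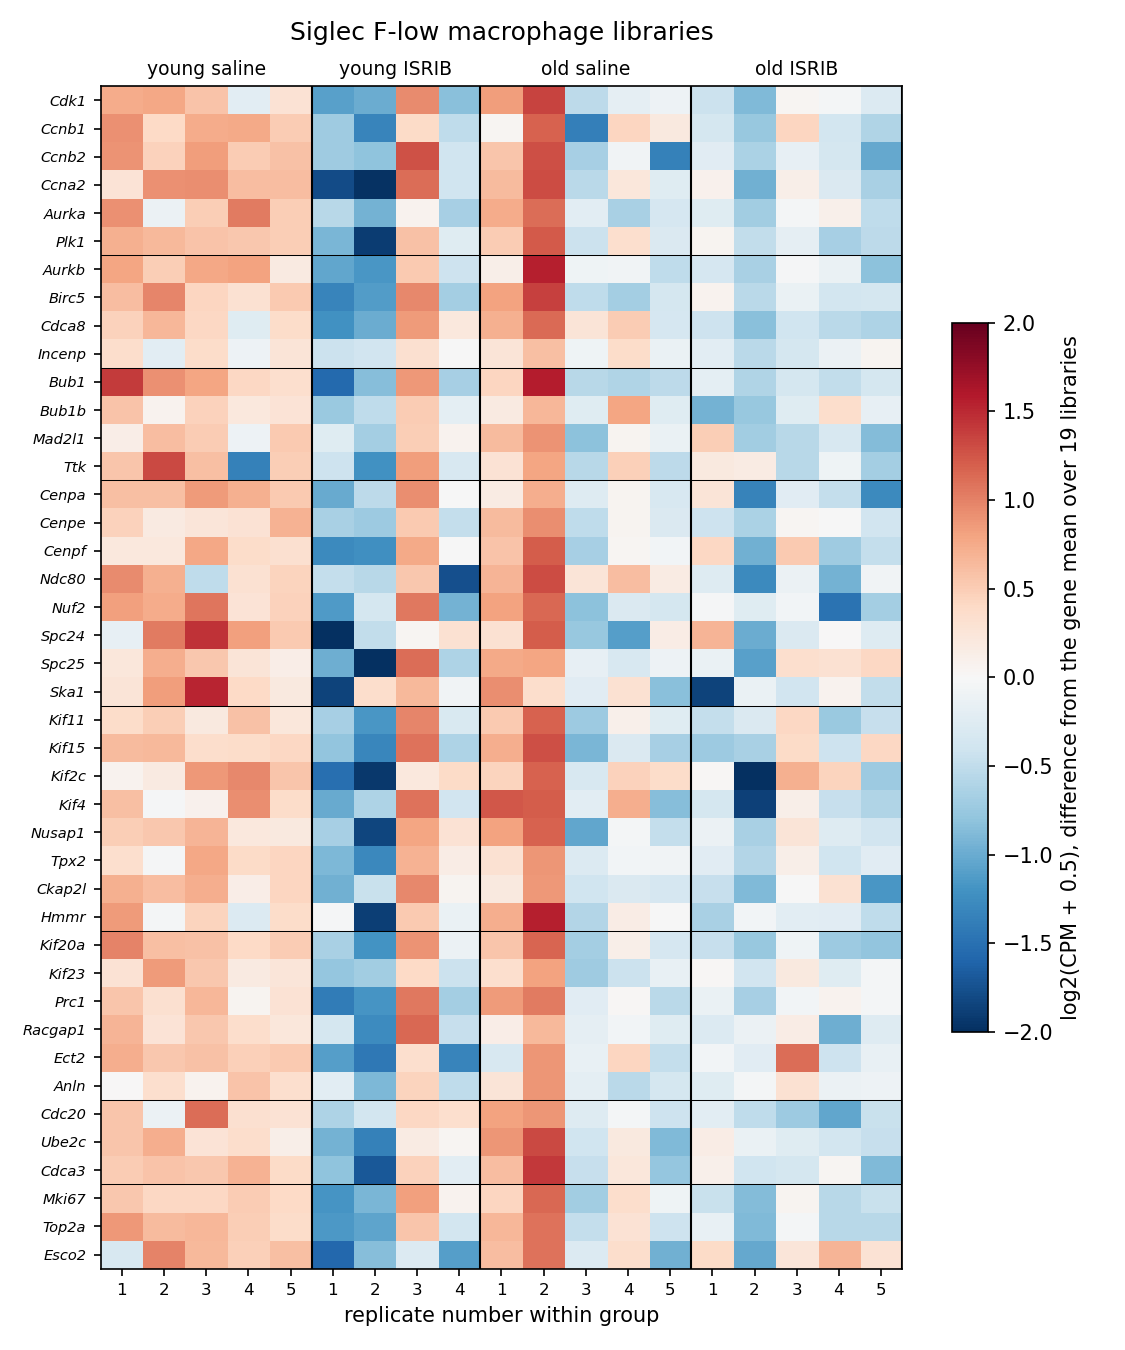
Log2(CPM + 0.5) of each of the 42 genes (rows, by role) in the 19 macrophage libraries (columns, by group and replicate number), as the difference from the gene's mean over these libraries. Replicate 3 of young ISRIB and replicate 2 of old saline are red (higher) down nearly the whole column, and replicates 1 and 2 of young ISRIB are mostly blue (lower).

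By age, ISRIB gave 0 calls among the 42 genes in old mice and 0 in young mice, as among all genes (0.00% at each age). DESeq2 also called 0 of them at each age. Before adjustment (p under 0.05), 16 were lower in old and 15 in young mice and 0 were higher, counts not set against those of all genes. In old mice Cdca8 read 15.7, 21.3, 11.3, 13.6 and 7.33 CPM with saline and 6.93, 5.06, 7, 6.31 and 5.94 CPM with ISRIB. The kinetochore gene Ndc80 read 8.79, 13.8, 6.49, 8.46 and 6.01 CPM with saline and 4.35, 1.9, 4.87, 2.53 and 5.04 CPM with ISRIB. These were the only genes of the 42 whose old groups did not overlap (0.477% of all genes were lower without overlap), with edgeR adjusted p of 0.248 and 0.318. In young mice the groups did not overlap for Ect2 (saline 14.2, 12.4, 12.8, 11.9 and 12.3 CPM; ISRIB 3.66, 2.8, 10.7 and 3.06 CPM) and Ccnb1 (12.4, 8.53, 11, 11 and 9.22 CPM; 3.66, 2.24, 8.39 and 4.28 CPM), while 2.10% of all genes were lower without overlap. Their edgeR adjusted p were 0.154 and 0.223.

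Ect2 and Esco2 had unlike values at the 2 ages. With ISRIB, Ect2 changed by -1.34 ± 0.38 in young and -0.02 ± 0.34 in old macrophages, and Esco2 by -1.63 ± 0.47 and -0.14 ± 0.41 (log2, SE). In old mice Ect2 read 6.59, 15.9, 7.52, 11.5 and 5.91 CPM with saline. With ISRIB it read 8.07, 7.08, 18.9, 6.19 and 7.49 CPM there, with replicate 3 far above the others. Esco2 read 2.97, 8.15, 6.33, 5.52 and 6.1 CPM in young saline and 0.964, 1.91, 3.11 and 1.53 CPM in young ISRIB macrophages, which overlapped at 1 library. In old mice it read 6.17, 8.71, 3.1, 5.02 and 1.73 CPM with saline and 5.17, 1.64, 4.62, 6.44 and 4.78 CPM with ISRIB. The difference between the ages was not called for either gene (edgeR adjusted p = 0.954 for both), nor for any of the 42 (0.00% of all genes). At an unadjusted p under 0.05 these 2 were the genes of the 42 that differed, and DESeq2 called 0.

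Among further lists in the averaged ISRIB comparison, 2 of 93 other mitosis genes were called lower: Spag5, a spindle protein, at -1.18 ± 0.26 (SE; edgeR adjusted p = 0.0341) and Espl1, the separase that cuts cohesin, at -0.67 ± 0.13 (adjusted p = 0.0205). Of 40 replication genes 0 were called, while 20 were lower and 0 higher at an unadjusted p under 0.05. The 18 G1 cyclins and drivers and the 19 tested genes that restrain the cycle gave 0 calls, with 3 and 2 lower and 3 and 1 higher at an unadjusted p under 0.05. Markers of cell identity were followed in the same libraries, and their summed ranges overlapped between ISRIB and saline at each age. Of 12 mature alveolar macrophage markers 10 were higher on average with ISRIB, and their summed CPM was 6222 to 8950 in young saline, 6132 to 9890 in young ISRIB, 6065 to 10604 in old saline and 7990 to 15879 in old ISRIB macrophages. Among these markers, Siglecf did not overlap in young mice, at 46.8 to 58.8 CPM with saline and 60.3 to 82.0 CPM with ISRIB. Of all genes, 1.80% were higher without overlap there. In old mice Siglecf read 51.5 to 120 CPM with saline and 101 to 156 CPM with ISRIB. All 10 B cell markers and all 10 T and NK cell markers were higher on average with ISRIB, with 0 called. The B cell sums were 2.31 to 11.1 in young saline, 3.52 to 15.4 in young ISRIB, 11.5 to 42.4 in old saline and 24.7 to 57.2 CPM in old ISRIB macrophages, and the T and NK cell sums, with Ncr1 at 0 in all young libraries, were 1.29 to 4.28, 2.64 to 7.61, 7.93 to 18.3 and 8.33 to 30.5 CPM. Their part in the ISRIB differences was not tested.

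Age made no called difference to any of the 42 genes. Old against young macrophages gave 0 calls with saline, with ISRIB and in the average, where 1.16% (0.937% higher and 0.222% lower), 0.937% (0.444% and 0.493%) and 4.86% (3.12% and 1.74%) of all genes were called. DESeq2 called 0 in each. At an unadjusted p under 0.05, 0 genes of the 42 differed with saline, Ect2 and Esco2 were higher in old mice with ISRIB, and Cenpa was lower in old mice in the average (-0.51, edgeR adjusted p = 0.209). The median log2 fold change was -0.16 with saline, -0.05 with ISRIB and -0.09 in the average. B cell markers differed by age in these libraries (5 of 10 called higher in old macrophages in the average), and their part was not tested. The groups overlapped for every one of the 42 genes with saline (1.93% of all genes were lower and 1.22% higher without overlap). Without both high libraries, 1 gene was called lower with saline and 1 higher with ISRIB. Among the genes that restrain the cycle, 3 of 19 were called higher in old macrophages in the average. They were Cdkn2a, the locus of p16 and p19ARF and a marker of cell senescence, with an edgeR adjusted p of 0.0101, Gadd45a at 0.78 ± 0.15 and Cdkn1a (p21) at 0.55 ± 0.13. Cdkn2a rested on few counts, with 0 in all 4 young ISRIB libraries, 0 to 6 in young saline, 0 to 40 in old saline and 2 to 25 in old ISRIB libraries, so no fold change is given for it. The G1 cyclin gene Ccnd2 was higher by 2.23 ± 0.28 (adjusted p = 2.14e-05).

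In monocytes none of the 27 genes that could be tested was called for ISRIB or age, at either level of the other factor, in the average or in the interaction. All genes gave 0.00% for ISRIB at either age and in the average, 0.0247% for age with saline, 0.00% for age with ISRIB, 0.123% for age in the average and 0.00% for the interaction. DESeq2 called 0 of the 27 in each. At an unadjusted p under 0.05, between 1 and 4 of them differed in each of the 7 comparisons. With ISRIB the median log2 fold change was -0.16 in young, 0.14 in old monocytes and 0.01 in the average. Racgap1 in old monocytes had 0.65 (edgeR adjusted p = 0.571), with 65.7, 41.5, 80.3, 44.8 and 119 CPM with saline and 76.7, 97.3, 131, 106 and 120 CPM with ISRIB.

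Whether macrophages responded to ISRIB unlike monocytes was tested in 1 fit over all 39 libraries. The difference between the cell types was called for 0 of the 42 genes (0.00% of all genes), with 11 lower in macrophages before adjustment (p under 0.05) and 0 higher, and a median of -0.77. DESeq2 called 3 of them. Cdk1 came nearest, at -3.69 (edgeR adjusted p = 0.0677), on monocyte levels of 0 to 0.873 CPM. In monocytes its pooled counts were 2 in young and 2 in old saline mice, and 22 and 18 in the matching ISRIB mice. The value thus rests in part on few monocyte counts. The 42 include the 15 genes, Cdk1 among them, that passed the filter only through the macrophage libraries. For age, the difference between the cell types was called for 0 of the 42 (0.743% of all genes), with 4 lower and 1 higher before adjustment, while DESeq2 called 0.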

How the data were processed

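RNA-seq libraries were described by the authors as polyA-selected, and the deposited table holds raw counts per Ensembl gene in 39 libraries (43430 genes, 97.8% with a symbol in GENCODE vM21). Per the submitters' processing notes, bcl2fastq 2.19.1, FastQC, Trimmomatic 0.36, STAR 2.6.0 and HTSeq 0.11.2 were used with build mm10. For annotation and strand setting nothing is stated in the sources used here. The members of the list and all other gene lists were chosen with earlier results of these data known.

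Counts were tested with edgeR 4.0.16 (R 4.3.3), with TMM scaling, filterByExpr at a minimum count of 10 and a minimum total of 15, quasi-likelihood F tests over all genes that passed and Benjamini-Hochberg adjustment, called at an adjusted p under 0.05. The macrophage libraries, the monocyte libraries and all 39 libraries were fitted separately, for 12171, 12170 and 13587 genes. CPM used library totals, and RPKM the summed exon length. The fits were tested on simulated counts. Alternatives were DESeq2 1.42.0 (its size factors in the edgeR fit, and its Wald test), no filter, a replicate block, all 39 libraries in every fit, leaving out each library, and the sum of the 42 genes on TMM-scaled totals. Same-numbered libraries of different groups had correlations of deviations between -0.15 and 0.17 in macrophages (27 pairs) and between -0.19 and 0.24 in monocytes (30 pairs). Differently numbered libraries gave -0.22 to 0.22 and -0.26 to 0.24. No pairing by number was thus seen within a cell type, though such small groups cannot exclude it. Pairing between the cell types was not tested. Within groups, 76 pairs of libraries differed by 7.26 to 57.7 times the sampling variance, so none was the same library counted again. The check cannot tell whether libraries shared a mouse. Values were printed for up to 3 genes of each role with the highest mean CPM, for any of the 42 genes called within a cell type, for up to 8 called genes per comparison and direction and for up to 5 called genes of other lists; other genes were named after their values were seen. Counts at an unadjusted p under 0.05 were set against all genes in the averaged ISRIB comparison of macrophages only. Intervals cover counting error only. Promoter stretches were copied from RefSeq windows. Results that rest on 1 list of monocyte markers are not reported here.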

Additional observations from a re-analysis of the deposited data

Results flagged for a closer look

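Single libraries were compared with their group of 4 or 5 in 132 cases, for the summed CPM and for the 3 most abundant genes of each role where the group mean was at least 5 CPM. In 7 of these cases, which involve 4 libraries, the library lay far from the others of its group by Dixon's criterion. Chance gives about 1 in 20 where cases are independent, and these share libraries. In young ISRIB macrophages replicate 3 was the far one 4 times: for Ccnb2 at 40.7 CPM, Cdk1 at 25.96 CPM, Birc5 at 21.9 CPM and Cenpe at 23.5 CPM, with the other 3 libraries at 9.30 to 12.5, 5.97 to 7.18, 4.14 to 6.73 and 9.64 to 11.5 CPM. Aurkb stood at 31.4 CPM in replicate 2 of old saline macrophages, against 7.13 to 11.3 CPM in the others. Mad2l1 stood at 17.3 CPM in replicate 1 of old ISRIB macrophages (others 6.46 to 9.60 CPM), and Cenpf at 23.4 CPM in replicate 3 of young saline macrophages (others 15.7 to 17.6 CPM).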

How the results depend on the processing

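The macrophage and monocyte levels depended little on the processing: called genes numbered 39 to 40 of 42 over all alternatives of the averaged comparison. In the ISRIB comparison of macrophages averaged over both ages, the count of 1 became 13 with DESeq2, 30 with no filter, 2 with the replicate block, 0 with all 39 libraries in the fit and 23 without both high libraries, and it ran from 0 to 30 when each library was left out; all these calls were lower with ISRIB. With no filter, 8 genes were called for ISRIB in old mice, 7 in young mice and 1 for age in the average. Leaving out each library gave 0 to 16 calls for ISRIB in young mice, and leaving out both high libraries gave 26 there, 1 for age with saline, 1 for age with ISRIB and 1 for the difference between cell types in the ISRIB effect. That difference gave 3 calls with DESeq2, 1 with no filter and 0 to 1 when each library was left out. Shares of all genes called are given for the main fit only, so these counts are not set against all genes. The cause of these changes was not tested. No fold change recomputed for a called gene, or for any of the 42 in the averaged ISRIB comparison, changed its sign; of the 3 genes not called between the cell types, Aurkb alone did, at -0.0654 without both high libraries (adjusted p = 0.648). The replicate block, with numbers that showed no pairing of the libraries, moved the count of calls as given and in old saline mice from 38 to 39. On TMM-scaled totals the group means of the summed CPM moved by less than 1 SD. Genes under about 1 CPM in monocytes rest on few counts, and 15 of the 42 could not be tested there.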
